A study of Mus musculus with 16 samples.

Results

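The subject here is the interaction between Aire genotype and CD80 stage in mouse medullary thymic epithelial cells (mTEC): for every probe set, the knockout minus wild-type difference in CD80hi cells minus the same difference in CD80lo cells. The contrast draws on 8 of the 16 arrays of the series, and 12422 of the 12488 probe sets in the table were given it, leaving out 66 AFFX controls. The groups are Aire knockout CD80hi mTEC, wild-type CD80hi mTEC, Aire knockout CD80lo mTEC and wild-type CD80lo mTEC, with 2 arrays each. Cells were sorted by flow cytometry on high or low surface CD80, and total RNA was hybridised to an Affymetrix-type mouse array. The other 8 arrays, of wild-type mTEC not split by CD80, cortical epithelium (cTEC), thymic dendritic cells and thymic macrophages, entered the fit only to estimate the spread. The 8 arrays split by CD80 are called the sorted arrays below. Strain, age, sex and number of the mice, and the structure of the knockout allele, could not be taken from the labels. Nothing in the labels says that the 2 arrays of a group came from separate sorts or mice. The p-values thus rest on a spread between arrays of a group that may be technical, pooled over all 16 arrays. The 2 arrays of a group correlated (Pearson) at 0.939 in knockout CD80hi and 0.939 in knockout CD80lo cells. The values were 0.972 in wild-type CD80hi and 0.970 in wild-type CD80lo cells.

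Medullary thymic epithelial cells transcribe genes that are otherwise restricted to peripheral tissues, such as hormones, milk proteins and liver enzymes, and present them to developing T cells. Cells that recognise such self antigens strongly are deleted or become regulatory. Aire, a nuclear protein found mainly in the mature CD80hi cells, is needed for many of these genes, whereas others are transcribed without it. CD80lo mTEC are a mixed population that holds precursors of the CD80hi cells and more specialised epithelial cells. A negative interaction means that the knockout lowered a gene more in CD80hi than in CD80lo cells, raised it in CD80lo cells more than in CD80hi cells, or did both, and only the levels in the 4 groups separate these cases.

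The genotype difference depended on the stage almost always in the same direction. The interaction was lower for 117 probe sets (0.942% of those tested) and higher for 1 (0.00805%), by limma over all 16 arrays at a Benjamini-Hochberg adjusted p under 0.05. At an unadjusted p under 0.05 the counts were 772 lower and 201 higher. The median interaction over all probe sets was 0.0047 on the log2 scale. Values are the deposited signals on a linear scale, and differences are on the log2(signal + 4.8) scale, which understates changes of dim probe sets. Of the 117 probe sets, 100 had 1 gene symbol and covered 96 genes, 6 had several symbols and 11 had none listed. Within CD80hi cells 289 probe sets were lower in the knockout (2.33%) and 16 higher (0.129%), and within CD80lo cells 4 were lower (0.0322%) and 25 higher (0.201%). The 117 were called lower in CD80hi in 86 cases and higher in CD80lo in 20, including 3 called in both stages. The remaining 14 passed in neither stage, and for these only the difference between the stages was past the threshold. In each bulk sample, fewer cells of a type and less RNA per cell cannot be told apart.

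The count of lower interactions changed with the arrays included. It was 60 without knockout CD80hi array 1, 37 and 51 without wild-type CD80hi array 1 or 2, 72 without knockout CD80lo array 1, and 66 and 34 without wild-type CD80lo array 1 or 2. Array 1 of each knockout group also stood apart from its partner in the 3′ probe set of an 18S ribosomal RNA control. This control had signals of 562.0 on array 1 and 48.2 on array 2 in knockout CD80hi and 147.7 and 159.3 in wild-type CD80hi cells, and of 1893.2 on array 1 and 286.6 on array 2 in knockout CD80lo and 341.8 and 376.3 in wild-type CD80lo cells. The 3′ to 5′ ratio of the Gapdh control was highest on knockout CD80hi array 2 (16.2, beside 5.53 on array 1). It was 8.09 and 11.1 in wild-type CD80hi, 4.32 and 7.81 in knockout CD80lo and 8.82 and 6.45 in wild-type CD80lo cells. The actin ratio was highest on wild-type CD80hi array 1 (12.2). No fit left out array 2 of both knockout groups. Without array 1 of both knockout groups the count was 31. All 117 estimates stayed below 0 in each of the 18 alternative settings in which they were tested (113 passed the filter at a signal of 17.3), 27 were called in every fit that left out 1 array, and 17 were called in every setting that tested them. The 117 were picked for low estimates on these arrays, which the alternatives reuse, so keeping the sign tests nothing. At the threshold, the granule protease gene Mcpt2 was just inside (interaction -3.48, adjusted p = 0.0491) and Lmbr1l was just outside (-2.21, adjusted p = 0.0527).

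The sort is visible in the markers of the stages. Cd80 had signals of 79.7 and 104.5 in knockout CD80hi cells and 61.3 and 87.5 in wild-type CD80hi cells, against 9.5 and 13.7 in knockout CD80lo cells and 13.7 and 6.6 in wild-type CD80lo cells. Aire had signals of 1589 and 1385 in knockout CD80hi cells, 1829 and 1705 in wild-type CD80hi cells, 127.3 and 83.0 in knockout CD80lo cells and 195.6 and 94.4 in wild-type CD80lo cells. Neither gene passed the test between genotypes in either stage or in the interaction. Whether the Aire probe set lies inside the deleted part was not determined here, so its signal does not check the genotype labels. The basal keratins Krt5 and Krt14, often used to mark medullary epithelium, had signals of 18.2 or less on all 8 arrays, whereas the epithelial adhesion gene Epcam had 118.4 to 412.8. Markers of other cells were uneven. The dendritic cell genes Itgax and Flt3 had 23.6 to 61.8 and 42.1 to 237.4, the B cell gene Cd79a had 25.2 or less, and the macrophage gene Adgre1 had 19.9 or less. Blk, another gene of the B cell list, had 681.1 and 535.6 in knockout CD80hi and 213.0 and 192.6 in wild-type CD80hi cells. It had 41.8 and 15.8 in knockout CD80lo and 14.9 and 31.3 in wild-type CD80lo cells, and its interaction did not pass (1.34, adjusted p = 0.739, limma). The myeloid genes Cd14 and Csf1r had negative interaction estimates that did not pass. Cd14 had 154.7 and 172.2 in knockout CD80hi, 627.5 and 441.8 in wild-type CD80hi, 890.8 and 435.1 in knockout CD80lo and 421.3 and 512.7 in wild-type CD80lo cells (-2.08, adjusted p = 0.0772). Csf1r had 40.3 and 41.8 in knockout CD80hi, 109.7 and 105.1 in wild-type CD80hi, 44.7 and 31.5 in knockout CD80lo and 30.0 and 15.3 in wild-type CD80lo cells (-1.97, adjusted p = 0.13). The summed signal of 18 macrophage genes was 2640 and 3430 in knockout CD80hi, 3442 and 3304 in wild-type CD80hi, 2805 and 2342 in knockout CD80lo and 2093 and 2098 in wild-type CD80lo cells, and its part in the result was not tested.

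Splitting the 117 probe sets at a log2 difference of 1 in each stage gave 65 that were lower in the knockout in CD80hi cells only, 35 that were lower in CD80hi and higher in CD80lo cells, 16 that were higher in CD80lo cells only and 1, the casein gene Csn1s1, that was lower in both. The classes rest on the size of the differences, not on whether each was called. All 65 were called lower in CD80hi cells. Of the 35, 20 were called lower in CD80hi and 7 higher in CD80lo cells, including 3 called in both, and 11 were called in neither. Of the 16, 13 were called higher in CD80lo cells and 3 in neither stage. The median differences of the 65 were -2.78 in CD80hi and 0.22 in CD80lo cells. Those of the 35 were -1.62 and 1.73, and those of the 16 were -0.54 and 2.53. The medians over all probe sets were -0.030 in CD80hi and -0.035 in CD80lo cells. The split uses the same values as the contrast, so these medians describe the classes and test nothing. Near the edge at 1, the retinol carrier gene Rbp4 (0.99 in CD80lo cells) fell into the class lower in CD80hi only and the second keratin Krt19 probe set (1.02) into the class that was also higher in CD80lo, while Ces1d (-0.96 in CD80hi cells) and Gsto1 (-1.11) lay on either side of the CD80hi edge.

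**Figure D1:**
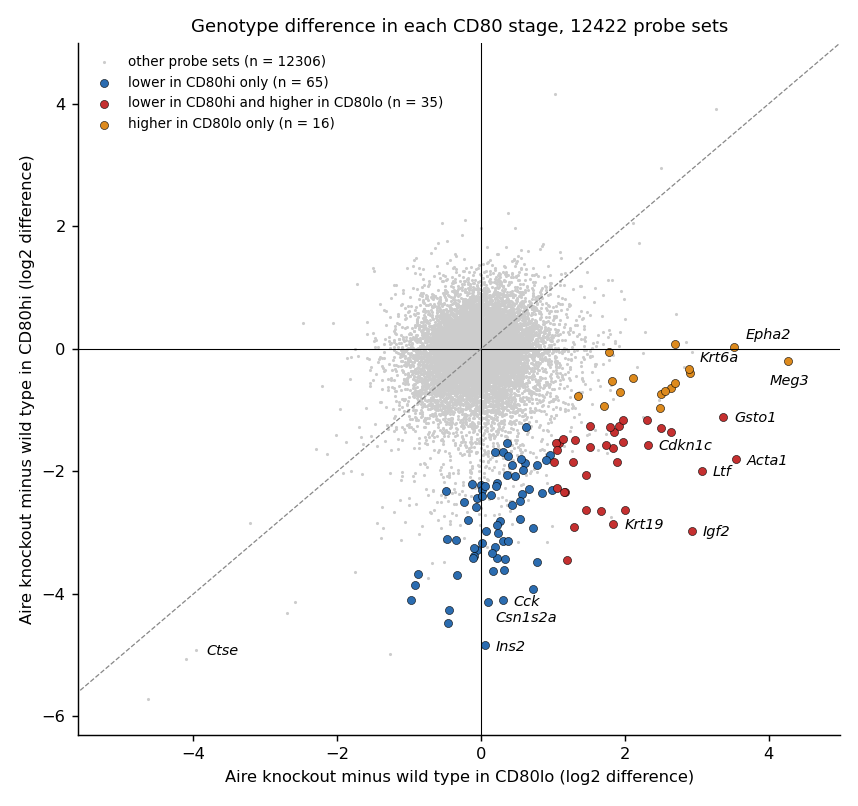
Knockout minus wild-type log2 difference in CD80hi cells (vertical axis) against the same difference in CD80lo cells (horizontal axis) for 12422 probe sets, with the 3 classes of lower interaction in colour and the dashed line marking equal differences. The 65 blue probe sets lie below 0 near the vertical axis, the 35 red ones lie below and to the right, the 16 orange ones lie to the right near the horizontal axis, and Ctse lies near the dashed line.

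Igf2, the gene of insulin-like growth factor 2, which is imprinted and drives fetal growth, had the lowest interaction of the series. Its signals were 41.9 and 117.5 in knockout CD80hi cells and 717.1 and 481.2 in wild-type CD80hi cells. In CD80lo cells they were 670.9 and 427.7 in the knockout and 65.2 and 66.8 in the wild type. The order of the stages was thus turned round between the genotypes with no overlap of the groups in either stage: the knockout had the higher level in CD80lo and the wild type the higher level in CD80hi cells. The difference was -2.97 in CD80hi (adjusted p = 0.00167), against 2.93 for CD80lo (adjusted p = 0.00895), giving an interaction of -5.90 ± 0.61 (SE, adjusted p = 0.000728, limma). In the wild-type mTEC not split by CD80 the signals were 268.7 and 394.3, and on the arrays of the other 3 cell types they were 10.6 to 31.1. The probe set carries a suffix for probes shared with other transcripts, and the other Igf2 probe set stayed at 5.8 or less on all 8 arrays and showed no call.

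Cdkn1c and Meg3 were the other imprinted genes that passed the test. Cdkn1c, which encodes the cell cycle inhibitor p57 and lies on chromosome 7 like Igf2, had signals of 313.1 and 250.5 in knockout CD80hi cells and 821.1 and 850.1 in wild-type CD80hi cells, and of 677.0 and 637.8 in knockout CD80lo cells and 119.2 and 136.6 in wild-type CD80lo cells. It repeated the pattern of Igf2, lower in CD80hi (-1.56, adjusted p = 0.00906) and higher in CD80lo cells (2.32, adjusted p = 0.00211), with an interaction of -3.88 ± 0.41 (adjusted p = 0.000728, limma). Meg3, a long noncoding RNA expressed from the maternal chromosome, had a different shape. It was near the floor in knockout CD80hi cells (4.6 and 4.0), wild-type CD80hi cells (5.8 and 5.5) and wild-type CD80lo cells (5.7 and 5.9), and was found at 284.1 and 139.0 only in knockout CD80lo cells. The CD80lo difference was 4.27 (adjusted p = 0.000454) and the interaction -4.47 ± 0.59 (adjusted p = 0.00346, limma), and a dimmer Meg3 probe set gave an interaction of -1.70 that did not pass. Of 21 imprinted genes measured, 3 had a lower interaction (14.3%, beside 1.04% of 8251 genes by their brightest probe set), and the same 3 were the only members called higher in CD80lo cells. Dlk1, from the same imprinted cluster as Meg3 and encoding a membrane protein of the Notch ligand family, had 19.1 and 51.6 in knockout CD80hi, 63.2 and 60.3 in wild-type CD80hi, 120.8 and 59.1 in knockout CD80lo and 41.2 and 39.0 in wild-type CD80lo cells, an interaction of -1.85 that did not pass (adjusted p = 0.289).

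In knockout CD80lo cells 4 of 47 striated muscle genes rose (8.51%), a smaller share than the 3 of 21 imprinted genes (14.3%) and beside 20 of 8251 genes in all (0.242%). Acta1, the actin of skeletal muscle thin filaments, had signals of 2.0 and 3.9 in knockout CD80hi cells and 21.9 and 22.2 in wild-type CD80hi cells. In CD80lo cells it had 636.3 and 508.1 in the knockout and 52.4 and 37.3 in the wild type, so that the knockout CD80lo arrays exceeded all 6 others. The knockout lowered Acta1 by a log2 difference of -1.80 in CD80hi (adjusted p = 0.00969), whereas the CD80lo difference was 3.55 (adjusted p = 0.000454), and the interaction was -5.35 ± 0.48 (adjusted p = 0.000291, limma). Unlike for Igf2, the wild-type CD80hi and CD80lo levels did not differ by the test (-0.87, adjusted p = 0.15). Outside these groups Acta1 was found at 42.5 and 38.8 in wild-type mTEC not split by CD80 and at 2.1 or less in the other 3 cell types.

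Of 47 striated muscle genes measured, 6 had a lower interaction (12.8%), namely Acta1, the cardiac actin gene Actc1, the acetylcholine receptor subunit gene Chrna1, the myosin light chain gene Myl1 and the fast myosin heavy chain genes Myh4 and Myh1. Acta1, Myl1, Myh4 and Myh1 were also called higher in CD80lo cells, and none of the 47 was called lower there. Actc1 had 30.8 and 29.9 in knockout CD80hi cells, 110.5 and 133.1 in wild-type CD80hi cells, 309.2 and 294.5 in knockout CD80lo cells and 138.8 and 106.4 in wild-type CD80lo cells. Its interaction was -3.12 ± 0.41 (adjusted p = 0.00346, limma), a dimmer Actc1 probe set gave -4.63 with the same adjusted p, and the knockout CD80lo arrays were again the highest of the 8. Myl1 had 9.1 and 21.6 in knockout CD80hi, 24.6 and 30.1 in wild-type CD80hi, 279.7 and 250.7 in knockout CD80lo and 38.4 and 47.4 in wild-type CD80lo cells. Myh4 had another pattern, with signals of 200.4 and 133.7 in knockout CD80hi, 223.9 and 261.2 in wild-type CD80hi, 93.1 and 111.6 in knockout CD80lo and 13.1 and 10.4 in wild-type CD80lo cells. The knockout CD80lo cells thus stayed below all CD80hi arrays for Myh4, whose interaction lost its call in 5 of 18 alternatives. Another Myh4 probe set stayed at 13.1 or less on all 8 arrays and had no called interaction. The other members were less clear. Myog, a transcription factor gene of muscle differentiation, had an interaction of -2.09 (adjusted p = 0.0771), with 171.5 and 178.6 in knockout CD80lo and 103.5 and 91.9 in wild-type CD80lo cells. Myod1, an earlier muscle determination gene, had -0.57 and Des, a muscle intermediate filament gene, 0.09. The creatine kinase gene Ckm was split between its probe sets, the dimmer passing (-2.35, adjusted p = 0.0211) and the brighter not (0.86, adjusted p = 0.93). Without array 1 of both knockout groups the counts of lower interactions were 4 muscle genes and 3 imprinted genes. The summed signal of 22 fibroblast genes was 5523 and 5159 in knockout CD80lo and 4297 and 4071 in wild-type CD80lo cells, and 1 of them, the transcription factor gene Twist1, was called higher there (17.5 and 18 against 1.1 and 0.6). The part of fibroblasts in the muscle result was not tested. Acta2, the smooth muscle actin gene, had 943.8 and 824.4 in knockout CD80lo and 1084.1 and 966.0 in wild-type CD80lo cells, and 0 of 9 smooth muscle genes had a called interaction.

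The promoters of the 6 muscle genes were looked up because all 6 had a called lower interaction, though their patterns over the groups differed. RefSeq promoter windows of build GRCm38.p6 were used, cut to the 250 bases before the annotated start. All 6 genes had an entry. A CArG box, the site class bound by serum response factor in actin and other muscle promoters, occurred in 3 of the 6, in 2 of the other 35 muscle genes with an entry (5.71%) and in 1.62% of 27025 genes with an entry. The sequence TATAAA, searched on both strands, occurred in 4 of the 6, in 5 of the other 35 muscle genes (14.3%) and in 14.3% of all genes with an entry. The 6 were picked for their interaction, so the shares describe them and test nothing, and a match is not evidence of a bound site. The 3 promoters with a CArG box are printed in the direction of transcription with CArG boxes and TATAAA matches of either strand in capitals. They are chr8:123894776-123895025 on the minus strand for Acta1, chr2:114052876-114053125 on the minus strand for Actc1 and chr11:67237562-67237811 on the plus strand for Myh4, and no 2 of these matches overlap.
Acta1: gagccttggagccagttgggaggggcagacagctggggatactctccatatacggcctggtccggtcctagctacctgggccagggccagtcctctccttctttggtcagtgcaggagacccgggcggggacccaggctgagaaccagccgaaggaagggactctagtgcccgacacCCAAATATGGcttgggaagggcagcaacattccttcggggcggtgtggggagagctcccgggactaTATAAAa
Actc1: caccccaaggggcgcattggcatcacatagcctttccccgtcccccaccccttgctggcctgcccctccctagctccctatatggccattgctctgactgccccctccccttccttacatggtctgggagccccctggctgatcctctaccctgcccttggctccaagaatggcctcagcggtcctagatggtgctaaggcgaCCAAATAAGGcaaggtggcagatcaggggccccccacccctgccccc
Myh4: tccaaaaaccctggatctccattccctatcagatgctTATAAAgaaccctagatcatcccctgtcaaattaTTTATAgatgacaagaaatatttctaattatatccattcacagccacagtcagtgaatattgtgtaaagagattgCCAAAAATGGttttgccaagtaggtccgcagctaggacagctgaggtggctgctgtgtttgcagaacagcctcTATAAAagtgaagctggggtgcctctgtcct
The CArG box began 73 bases before the start in Acta1, 47 bases before it in Actc1 and 104 bases before it in Myh4.

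**Figure D2:**
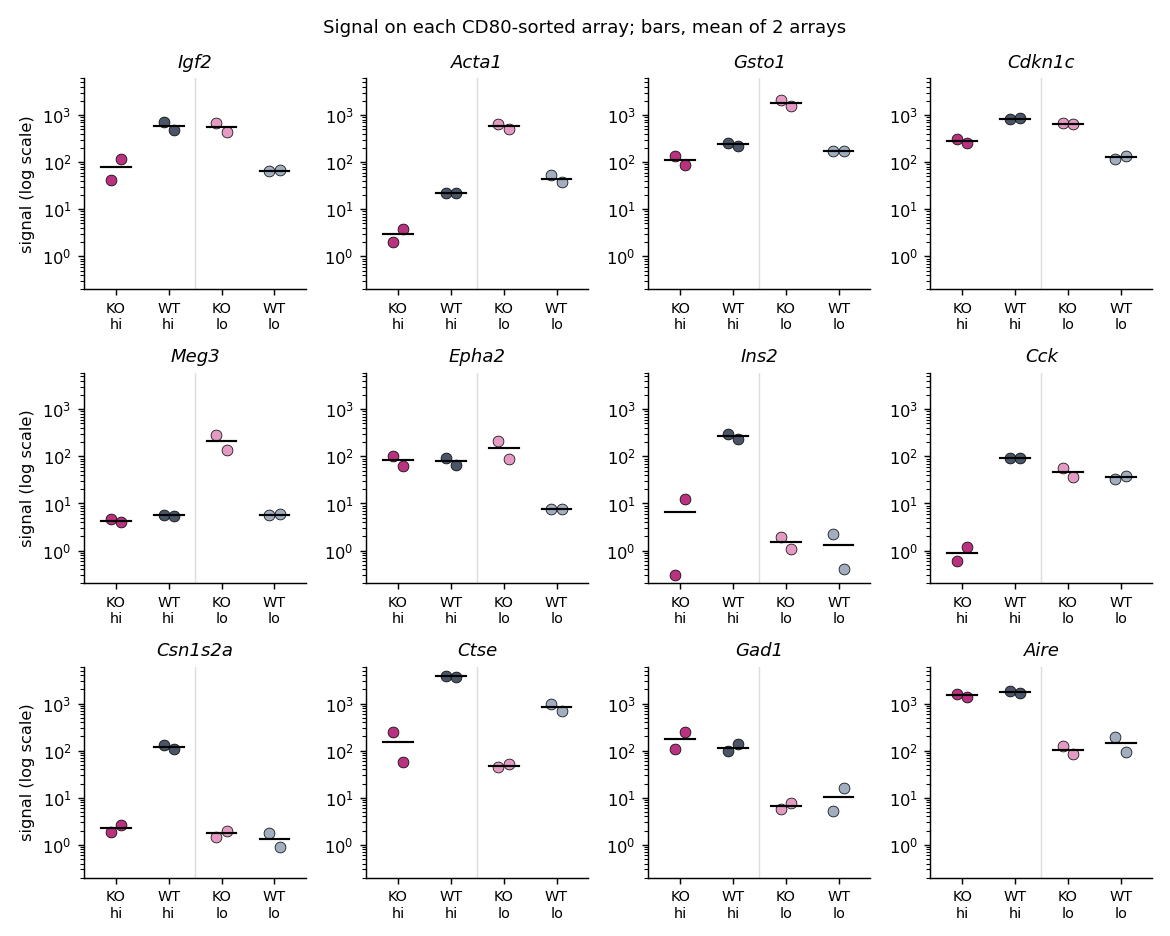
Signal of 12 genes on each of the 8 sorted arrays (log scale), in the order knockout CD80hi, wild-type CD80hi, knockout CD80lo and wild-type CD80lo, with points for arrays and bars for the mean of 2. Igf2 and Cdkn1c change order between genotypes, Acta1, Gsto1 and Meg3 are highest in knockout CD80lo cells, Ins2, Cck and Csn1s2a are low in knockout CD80hi cells, and Ctse is low in both knockout groups.

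Gsto1, a glutathione transferase of the omega class, had signals of 132.1 and 87.2 in knockout CD80hi and 254.6 and 221.4 in wild-type CD80hi cells. In CD80lo cells it had 2105.5 and 1567.5 in the knockout and 171.6 and 170.4 in the wild type, so the knockout CD80lo arrays were again above all others. The CD80lo difference was 3.37 (adjusted p = 0.000454), the CD80hi difference of -1.11 did not pass (adjusted p = 0.139), and the interaction was -4.48 ± 0.48 (adjusted p = 0.000728, limma). Ltf, the gene of the secreted iron binder lactotransferrin, had 32.9 and 38.7 in knockout CD80hi, 189.3 and 128.4 in wild-type CD80hi, 656.8 and 520.4 in knockout CD80lo and 76.2 and 55.8 in wild-type CD80lo cells (interaction -5.06 ± 0.79, adjusted p = 0.00754). In wild-type mTEC not split by CD80 it had 323.5 and 162.5. Ltf lost its call without array 1 of wild-type CD80hi and without array 2 of wild-type CD80lo cells, and without array 1 of both knockout groups (highest adjusted p 0.106), while its estimate stayed at -4.57 or lower.

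Several keratin and epithelial genes followed. Krt19, a keratin of simple epithelia, had 17.5 on both knockout CD80hi arrays, 198.1 and 123.9 in wild-type CD80hi cells, 948.8 and 741.2 in knockout CD80lo cells and 266.9 and 199.3 in wild-type CD80lo cells. It fell in CD80hi (-2.86, adjusted p = 0.00359), was higher in CD80lo cells by 1.84 without passing (adjusted p = 0.206), and had an interaction of -4.70 ± 0.64 (adjusted p = 0.00385, limma). Krt6a, a keratin of activated and stratified epithelium, had 121.3 and 152.9 in knockout CD80hi, 203.4 and 145.5 in wild-type CD80hi, 1392.3 and 968.4 in knockout CD80lo and 168.8 and 136.8 in wild-type CD80lo cells. Its change was in CD80lo cells (2.89, adjusted p = 0.00262), with no called difference in CD80hi cells (-0.33, adjusted p = 0.913). A dimmer Krt6a probe set was also called higher in CD80lo cells (2.93, adjusted p = 0.0147, limma). The interaction of that probe set did not pass (-2.98, adjusted p = 0.0553, limma). Msln, encoding the surface protein mesothelin, had 133.3 and 119.9 in knockout CD80hi, 157.6 and 178.0 in wild-type CD80hi, 915.2 and 558.5 in knockout CD80lo and 103.7 and 79.3 in wild-type CD80lo cells. Both genes had all knockout CD80lo signals above those of the other 6 arrays split by CD80, but the interaction of Msln lost its call in 9 of 18 alternatives, 7 of them fits without 1 array. In wild-type mTEC not split by CD80, Krt6a had 373.0 and 236.8 and Msln had 606.4 and 294.3. The Msln signal of 606.4 exceeded that of knockout CD80lo array 2 (558.5). Among 26 skin and cornified envelope genes 5 had a lower interaction (Krt6a, Krt4, Krt13, Lgals7 and S100a9; 19.2%), and none did without array 1 of both knockout groups. Of the 20 medullary epithelium genes none had a called interaction, and the claudins Cldn4 (-2.73, adjusted p = 0.187) and Cldn3 (-2.26, adjusted p = 0.0933) had the lowest estimates. The summed signal of these 20 genes was 12118 and 7950 in knockout CD80lo and 7754 and 6372 in wild-type CD80lo cells, and its part in the result was not tested.

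Other genes were called higher in knockout CD80lo cells without a called difference in CD80hi cells. Epha2, an ephrin receptor tyrosine kinase gene, had 104.4 and 61.3 in knockout CD80hi, 91.2 and 66.7 in wild-type CD80hi, 214.2 and 89.6 in knockout CD80lo and 7.6 and 7.8 in wild-type CD80lo cells. Its difference was 3.52 in CD80lo (adjusted p = 0.00186) and 0.04 in CD80hi cells, and the interaction was -3.49 ± 0.60 (adjusted p = 0.0122, limma). Ces1d, a carboxylesterase of liver and fat, had 320.4 and 355.1 in knockout CD80hi, 701.8 and 623.4 in wild-type CD80hi, 338.4 and 468.8 in knockout CD80lo and 88.7 and 49.8 in wild-type CD80lo cells, and its other probe set gave the same pattern (-3.27, adjusted p = 0.00783). Tnf, the gene of tumour necrosis factor and named here after its values were seen, had 416.2 and 241.2 in knockout CD80hi, 375.4 and 241.5 in wild-type CD80hi, 73.3 and 53.0 in knockout CD80lo and 6.2 and 4.9 in wild-type CD80lo cells. In knockout CD80lo cells Tnf was above the wild-type CD80lo arrays and below all 4 CD80hi arrays, and its interaction lay at the threshold (-2.63, adjusted p = 0.049). The CD80lo difference was 0.16 ± 0.39 (SE) for Cd80 and -0.39 ± 0.50 (SE) for Aire, 2 genes of the CD80hi stage, and neither was called. Why the genes above were higher in knockout CD80lo cells was not tested.

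Over the classes, the position of the knockout CD80lo cells varied. Both knockout CD80lo arrays lay above all 6 others for 14 of the 35 probe sets lower in CD80hi and higher in CD80lo and for 8 of the 16 higher in CD80lo only (4.89% of all probe sets do so). They lay between the wild-type CD80lo and wild-type CD80hi arrays for 12 of the 35 and 4 of the 16 (2.79% of all). Median signals of the 35 were 14.5 in knockout CD80hi, 61.9 in wild-type CD80hi, 58.2 in knockout CD80lo and 18.8 in wild-type CD80lo cells. Those of the 16 were 80.6, 116.9, 181.7 and 12 in the same order of groups. The stage difference was called in both genotypes with opposite sign for 8 probe sets in the whole table. In all 8 CD80hi was higher than CD80lo in the wild type and lower in the knockout, a choice that itself makes the interaction negative. The 7 with 1 gene symbol were Igf2, Cdkn1c, the satiety hormone gene Cck, Selenbp1 (a selenium-binding protein), Cyp8b1 (a bile acid enzyme), Arg1 (arginase of the urea cycle) and Chrna1. Arg1, taken as an example after its values were seen, had 24.3 and 32.1 in knockout CD80hi, 101.3 and 91.0 in wild-type CD80hi, 81.6 and 77.4 in knockout CD80lo and 16.4 and 21.4 in wild-type CD80lo cells. The class of 35 held 21 probe sets without knockout CD80hi array 1, 16 without wild-type CD80hi array 1, 16 without wild-type CD80lo array 2 and 14 without array 1 of both knockout groups, while the class of 16 ranged from 2 to 20 over the fits that left out 1 array.

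**Figure D3:**
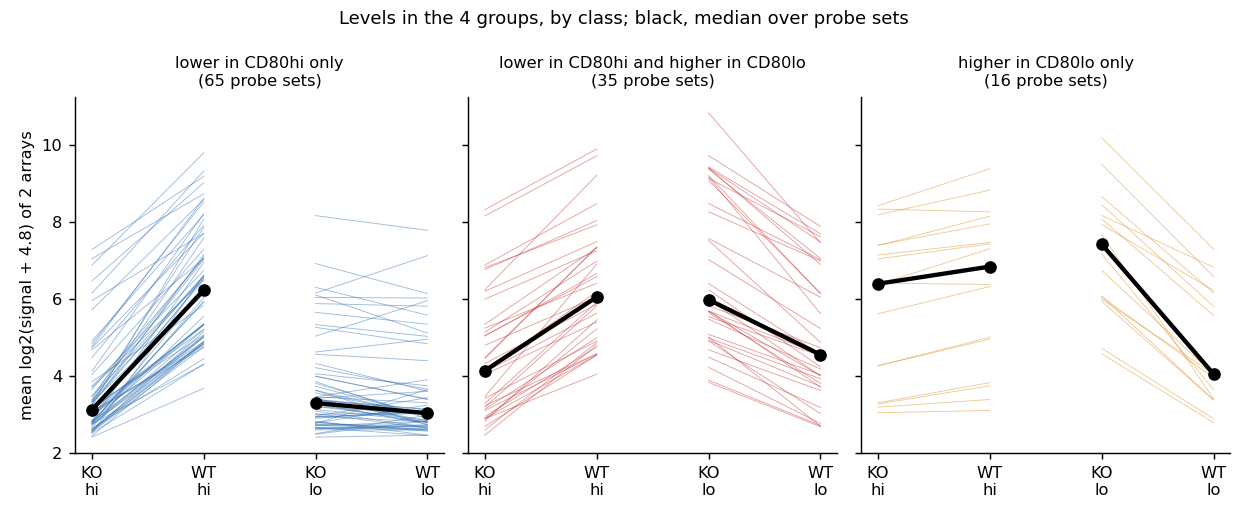
Mean log2(signal + 4.8) of the 2 arrays in knockout CD80hi, wild-type CD80hi, knockout CD80lo and wild-type CD80lo cells for each probe set (thin lines) and their median (black), in the 3 classes of 65, 35 and 16 probe sets. The left class has both CD80lo groups low, the middle class slopes up in CD80hi and down in CD80lo from knockout to wild type, and the right class differs mainly in CD80lo.

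The class lower in CD80hi only held 6 of 16 salivary gland and kallikrein genes, 2 of 10 milk genes, 3 of 25 intestine and stomach genes and 1 of 26 pancreas genes, beside 44 of 8251 genes in all (0.533%). The insulin gene Ins2 had signals of 0.3 and 12.6 in knockout CD80hi and 294.2 and 238.5 in wild-type CD80hi cells, and of 1.9 and 1.1 in knockout CD80lo and 2.2 and 0.4 in wild-type CD80lo cells. The knockout lowered it in CD80hi cells (-4.84, adjusted p = 0.000152), and the interaction was -4.90 ± 0.70 (adjusted p = 0.00465, limma). Its probes are shared within a family, so Ins1 and Ins2 may not be told apart. The casein gene Csn1s2a had 1.9 and 2.6 in knockout CD80hi, 131.1 and 107.0 in wild-type CD80hi, 1.5 and 2.0 in knockout CD80lo and 1.8 and 0.9 in wild-type CD80lo cells (interaction -4.22 ± 0.50, adjusted p = 0.00159). Both genes were near the floor of the array in CD80lo cells of either genotype, which leaves little room for a lower value.

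That floor applied to most of the class. In 52 of the 65 probe sets both CD80lo group means lay under 17.3, the 40th percentile of all values, and in 41 the wild-type CD80lo mean lay under 4.8, against 3 and 6 of the 35 that were also higher in CD80lo cells. Median signals of the 65 were 4.15 in knockout CD80hi, 70.7 in wild-type CD80hi, 5.5 in knockout CD80lo and 3.45 in wild-type CD80lo cells, and 60 of them were called higher in CD80hi than in CD80lo cells of the wild type. For these genes the interaction therefore repeats the CD80hi difference rather than comparing 2 measurable genotype differences. The count was sensitive to single arrays: 30 without knockout CD80hi array 1, 18 and 22 without wild-type CD80hi array 1 or 2, 31 and 36 without knockout CD80lo array 1 or 2, 33 and 15 without wild-type CD80lo array 1 or 2, and 10 without array 1 of both knockout groups.

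Cck is a member of the class that was measurable in CD80lo cells. It had 0.6 and 1.2 in knockout CD80hi and 92.6 and 93.5 in wild-type CD80hi cells, but 56.9 and 35.9 in knockout CD80lo and 33.1 and 38.6 in wild-type CD80lo cells. The knockout lowered it in CD80hi cells (-4.10, adjusted p = 4.42e-05) with no called difference in CD80lo cells (0.31 ± 0.35, SE), and with an interaction of -4.41 ± 0.49 (adjusted p = 0.000851, limma). Cck was also found at 59.9 and 49.0 in cTEC. S100a9, a calcium-binding protein gene of neutrophils and stressed epithelium, had 5.3 and 7.4 in knockout CD80hi, 139.5 and 124.3 in wild-type CD80hi, 27.0 and 12.7 in knockout CD80lo and 23.3 and 10.9 in wild-type CD80lo cells, with an interaction of -3.79 ± 0.68 (adjusted p = 0.0156) that was lost in 6 of 18 alternatives. Slpi, an epithelial protease inhibitor gene picked after its values were seen, was similar, with 19.9 and 23.6 in knockout CD80hi, 223.6 and 185.0 in wild-type CD80hi, 79.1 and 36.3 in knockout CD80lo and 73.6 and 35.3 in wild-type CD80lo cells.

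By tissue, salivary gland and kallikrein genes had the largest share, 6 of 16 (37.5%), with median differences of -2.48 in CD80hi and -0.01 in CD80lo cells, but 1 of 16 was left without array 1 of both knockout groups. Klk1b8, a glandular kallikrein, had 6.1 and 9.5 in knockout CD80hi, 137.5 and 120.2 in wild-type CD80hi, 3.2 and 6.5 in knockout CD80lo and 2.4 and 4.5 in wild-type CD80lo cells. A dimmer Klk1b8 probe set gave an interaction that did not pass (-2.99, adjusted p = 0.0701, limma). Klk6, a trypsin-like kallikrein, had 1.5 and 1.5 in knockout CD80hi, 77.5 and 47.0 in wild-type CD80hi, 0.6 and 2.2 in knockout CD80lo and 3.1 and 0.7 in wild-type CD80lo cells, and kept its call in all 18 alternatives. The Klk1b genes, unlike Klk6, are near-identical copies, and several of their probe sets carry suffixes for shared probes. Of 10 milk genes, 3 had a lower interaction (Csn1s1, Csn1s2a and the whey protein gene Wap; 30%), as did 3 of 25 intestine and stomach genes (12%), including Cck and the incretin hormone gene Gip, 2 of 32 liver and plasma protein genes (6.25%), namely Apoa1 and Fgb, 2 of 23 testis and germ cell genes (8.7%) and 1 of 26 pancreas genes (3.85%). The islet hormone gene Ppy was counted by its brightest probe set, which did not pass (-1.69, adjusted p = 0.146), but its other probe set had 4.2 and 4.9 in knockout CD80hi, 152.9 and 122.8 in wild-type CD80hi, 14.1 and 16.3 in knockout CD80lo and 7.3 and 7.4 in wild-type CD80lo cells (-4.64 ± 0.58, adjusted p = 0.00225, limma) and was called in every fit that left out 1 array. The pancreas list had 9 members called lower in CD80hi cells, and its median interaction was -1.50. Of 17 earlier reported Aire targets, 6 had a lower interaction (35.3%), a list that was drawn up with results of Aire knockout thymus known and is no independent evidence.

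Not every gene lowered in knockout CD80hi cells had a called interaction. Cathepsin E (Ctse), an endosomal protease gene, had 248.8 and 57.9 in knockout CD80hi and 3935.6 and 3657.8 in wild-type CD80hi cells, and 44.0 and 51.9 in knockout CD80lo and 960.0 and 695.6 in wild-type CD80lo cells. It fell in both stages, with a log2 difference of -4.91 in CD80hi (adjusted p = 0.000111, limma) and another of -3.97 in CD80lo (adjusted p = 0.00186), and its interaction of -0.95 did not pass (adjusted p = 0.947). A second bright Ctse probe set gave differences of -4.31 in CD80hi and -2.70 in CD80lo cells. Its interaction was -1.61 ± 0.45 (SE) and did not pass (adjusted p = 0.146, limma). A test that did not pass does not show that the stages were alike. A much dimmer Ctse probe set, at 63.6 or less, gave differences of -0.70 in CD80hi and 0.19 in CD80lo cells. The 4 probe sets called lower in CD80lo cells, 2 of Ctse, 1 of AI506816 and 1 without a gene listed, were all lower in CD80hi cells as well. Over the 289 probe sets called lower in CD80hi cells, the CD80lo difference had a median of 0.0011, 50.2% were above 0 (46.5% of all probe sets), 6.92% were at 1 or more (2.52% of all) and 7.96% at -1 or less (2.07% of all). The 25 called higher in CD80lo cells had a median of -0.52 in CD80hi cells (-0.030 over all probe sets), and 5 of them (20%) were above 0 (46.9% of all). A lower interaction was called for 20 of the 25 (0.942% of all). The interaction subtracts the CD80lo difference by which the 25 were picked, so this last count tests nothing. The CD80hi and CD80lo differences share no arrays, but deviations of same-numbered arrays correlated at 0.437 between the knockout groups. The differences in CD80hi and CD80lo cells may thus not be independent.

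Some tissue antigen genes showed no called genotype difference. Gad1, the glutamate decarboxylase gene of inhibitory neurons, had 110.9 and 248.7 in knockout CD80hi and 97.6 and 135.5 in wild-type CD80hi cells, and 5.8 and 7.8 in knockout CD80lo and 5.1 and 15.8 in wild-type CD80lo cells. Csn2, the beta-casein gene, had 2869.3 and 3103.0 in knockout CD80hi and 2462.4 and 3088.9 in wild-type CD80hi cells, and 84.5 and 85.4 in knockout CD80lo and 98.7 and 39.0 in wild-type CD80lo cells. Neither passed in any of the 3 comparisons, and the genotypes overlapped within each stage. Both were higher in CD80hi than in CD80lo cells of either genotype. The only probe set with a higher interaction belonged to Pcdh7, a protocadherin gene named after its values were seen, with 12.7 and 12.4 in knockout CD80hi, 4.7 and 2.7 in wild-type CD80hi, 1.5 and 4.1 in knockout CD80lo and 8.3 and 8.1 in wild-type CD80lo cells (1.84 ± 0.38, adjusted p = 0.0354, limma), all near the floor. By the brightest probe set per gene, that of Pcdh7 included, 0 of 8251 genes had a called higher interaction.

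Lists of other cell types and of general functions gave few calls. By the brightest probe set, no gene of MHC class II and costimulation (18 measured), MHC class I and interferon (21), cortical epithelium (12), dendritic cells (11), thymocytes (17), B cells (12), fibroblasts (22), endothelium (14) or cell cycle (25) had a called interaction, and 1 of 18 macrophage genes (Marco) and 1 of 11 erythroid genes (Rhd) did. A dimmer probe set of the fibroblast collagen gene Col1a1 was called, with 6.3 and 1.8 in knockout CD80hi, 16.2 and 21.9 in wild-type CD80hi, 37.0 and 58.3 in knockout CD80lo and 18.6 on both wild-type CD80lo arrays (-2.60, adjusted p = 0.0213), whereas its brightest did not pass (-1.47, adjusted p = 0.65). The summed signals of these lists still differed between arrays. The B cell sum was 7328 and 460.1 in knockout CD80lo and 1933 and 2700 in wild-type CD80lo cells, and the endothelial sum was 292.1 and 1006 in knockout CD80lo and 1222 and 723.4 in wild-type CD80lo cells. The B cell sum was carried by the immunoglobulin heavy chain gene Ighm, with 7096.3 and 266.5 in knockout CD80lo and 1709.4 and 2458.5 in wild-type CD80lo cells, while the other 11 genes summed to 232.1 and 193.6 in knockout CD80lo and 224.0 and 241.7 in wild-type CD80lo cells. Knockout CD80lo array 1 was thus high for Ighm and low for endothelial genes, and the part of either in the result was not tested. In CD80hi cells the 11 B cell genes other than Ighm summed to 985.9 and 834.8 in the knockout and 532.3 and 457.1 in the wild type. The part of this difference in the result was not tested. The Y-linked gene Eif2s3y had 54.3 and 233.3 in knockout CD80hi, 4.2 and 2.0 in wild-type CD80hi, 36.7 and 149.1 in knockout CD80lo and 8.2 and 0.5 in wild-type CD80lo cells, and it was called higher in the knockout in CD80hi cells (3.92, adjusted p = 0.00482) but not in CD80lo (3.27, adjusted p = 0.0755), with an interaction of 0.66 that did not pass. Uty, also Y-linked, had 1.6 and 22.3 in knockout CD80hi and 1.2 and 2.4 in wild-type CD80hi cells. In CD80lo cells Uty had 1.9 and 8.1 in the knockout and 1.9 and 1.3 in the wild type. Y-linked Kdm5d stayed at 5.5 or less, and Xist had 25.6 to 198.5. The labels do not give the sex of the mice. A difference in sex between the genotypes cannot be told apart from the knockout, and its part in the result was not tested.

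**Figure D4:**
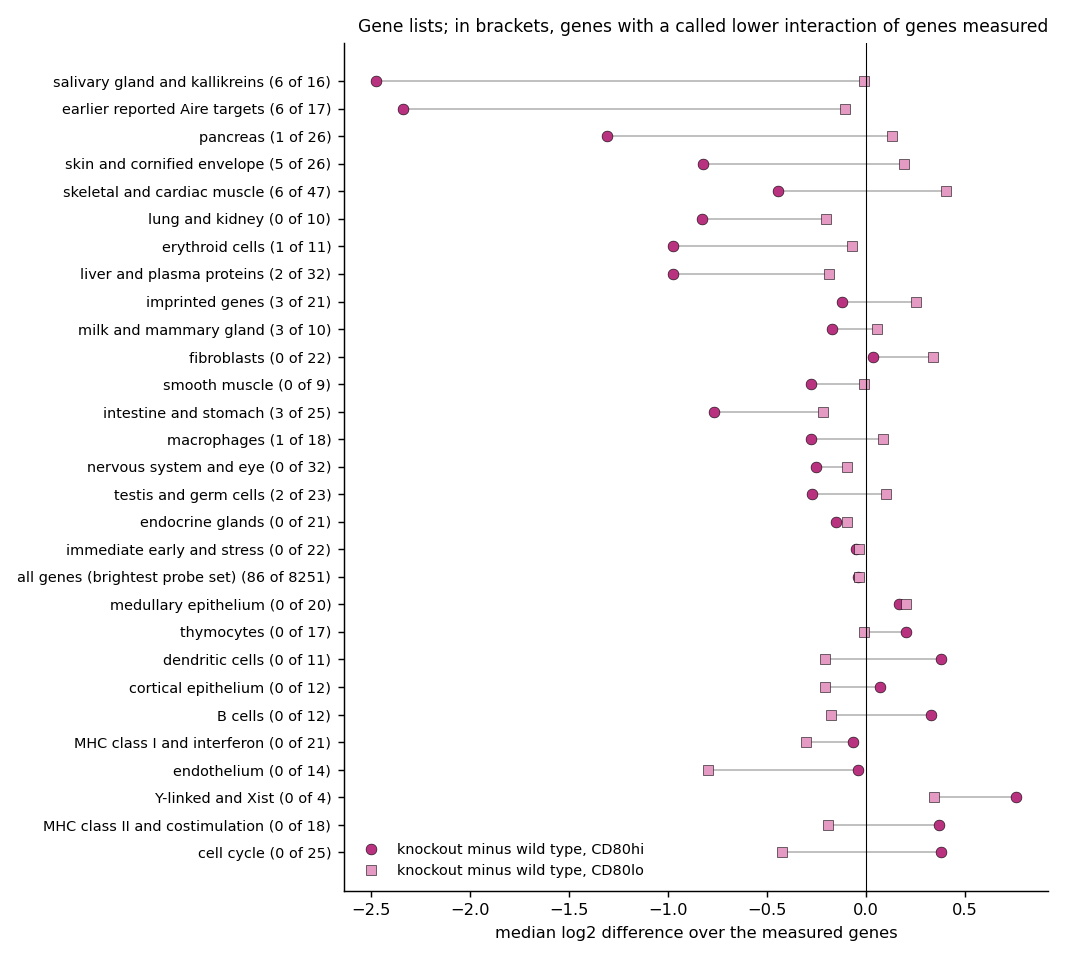
Median knockout minus wild-type log2 difference in CD80hi (circles) and CD80lo cells (squares) for 28 gene lists and for all genes, ordered by median interaction, with the number of genes with a called lower interaction of those measured in brackets. Salivary gland genes (6 of 16) have the widest gap between the stages, and the muscle list (6 of 47) has the highest CD80lo median of the lists, 0.40.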

How the data were processed

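Total RNA of 16 sorted mouse thymic cell samples was measured on arrays of 12488 probe sets. The deposited values are signal intensities on a linear scale with 1 decimal, and the software that made them is not given in the sources used here. Trimmed means (2% off each end) were 100.1 on each of the 8 sorted arrays, so the authors appear to have scaled the deposited intensities to a common level. No further normalization was applied. Groups were taken from the sample titles. Probe sets were named from the platform annotation, updated through Entrez numbers to RefSeq symbols: 10833 had 1 symbol, 396 several and 1193 none listed. Values were tested as log2(signal + 4.8), 4.8 being the 20th percentile of all values, in limma 3.58.1 (R 4.3.3) with lmFit and eBayes with a trend over all 16 arrays in 8 groups (8 residual and 5.96 prior degrees of freedom), without a filter on low values, two-sided, with Benjamini-Hochberg adjustment over 12422 probe sets and a threshold of 0.05. The number of arrays limits the precision. Lists and named genes used the brightest probe set per gene.

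The contrast, the 28 gene lists (542 of 639 members measured) and the tests were chosen with earlier results of these data known. The 71 genes named by rule were the 10 lowest and highest called interactions, the 6 largest of each class, the 2 of smallest p in each list, a few fixed genes and those called in both stages. Further genes that identify the members of a count were named after their values were seen. Alternatives were quantile normalization, constants of 1 and 17.3, filters at 17.3 or 50 on 2 arrays, no trend, the 8 sorted arrays alone, a replicate block, and leaving arrays out.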

Additional observations from a re-analysis of the deposited data

Results flagged for a closer look

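The genotype difference itself differed between the stages, by the interaction test, for each named gene listed here. The interaction (log2) was -5.90 for Igf2, -5.35 for Acta1, -5.06 for Ltf, -4.90 for Ins2, -4.70 for Krt19, -4.48 for Gsto1, -4.47 for Meg3, -4.41 for Cck, -4.31 for Selenbp1, -4.22 for Csn1s2a, -4.09 for Zp3 and -4.01 for Mucl2. It was -3.88 for Cdkn1c, -3.79 for S100a9, -3.77 for Ly6g, -3.72 for Csn1s1, -3.63 for Klk1b8, -3.49 for Epha2, -3.46 for Ces1d, -3.31 for Msln, -3.27 for Klk6, -3.25 for Myl1, -3.24 for Myh4, -3.24 for Gip, -3.22 for Krt6a, -3.12 for Actc1 and -3.08 for Apoa1. It was -2.69 for Rhd, -2.64 for Krt4, -2.45 for Ldhc, -2.32 for Marco and -1.85 for Fgb. Igf2, Acta1, Ins2, Gsto1, Meg3, Cck, Csn1s2a, Zp3, Cdkn1c, Klk6 and Actc1 kept their call in all 18 alternatives. Fgb lost its call in 15 of 17 alternatives, Marco in 14 of 17, and Mucl2 and Apoa1 in 10 of 18 each. Msln and Ly6g lost theirs in 9 of 18 each, Rhd in 8 of 17, Krt4 and S100a9 in 6 of 18 each, Myh4 in 5 and Ces1d in 4 of 18, and the others in 3 or fewer.

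Among the control probe sets, which no comparison used, the 3′ probe set of the 18S control read 1893.2 on knockout CD80lo array 1, above both wild-type CD80lo arrays (341.8 and 376.3).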

How the results depend on the processing

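The count of lower interactions (117) was 52 with a constant of 1, 217 with a constant of 17.3, 77 with only the 8 sorted arrays and 31 without array 1 of both knockout groups. It ran from 34 to 100 when 1 array was left out. The count of higher interactions (1) was 2 after quantile normalization, 0 with a constant of 1 and with either filter, and 9 with a constant of 17.3, and ran from 0 to 7 with 1 array left out. Called probe sets in CD80hi (305 in both directions) were 187 with a constant of 1, 193 with the filter at 50, 164 without array 1 of both knockout groups, and 92 to 313 with 1 array left out. Those in CD80lo (29) were 17 with a constant of 1 and 9 to 29 with 1 array left out. The class lower in CD80hi only (65) was 18 with a constant of 1, 144 with a constant of 17.3, 40 with the filter at 50, 41 with the 8 sorted arrays, 10 without array 1 of both knockout groups, and 15 to 58 with 1 array left out. The class also higher in CD80lo (35) was 20 with a constant of 17.3, 14 without array 1 of both knockout groups, and 16 to 41 with 1 array left out. The constant changes how much dim values count, and leaving out arrays leaves fewer values. Otherwise the cause was not tested. A lone remaining array is assumed to vary like the other groups.

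The labels do not say that replicate numbers mark a shared sort or mouse. Deviations of same-numbered arrays correlated at 0.437 between the knockout groups, whose arrays also split by number in Eif2s3y and the 18S control, and at 0.020 to 0.126 between the other pairs of groups, so the numbers were not used as a pairing. With the replicate block over the 8 sorted arrays there were 124 lower and 7 higher interactions, and with a replicate block for the knockout arrays alone, added after seeing the data, 133 and 3. Quantile normalization moved the median CD80hi difference to 0.064, beside -0.030 as deposited, and no interaction estimate of the 117 changed sign. As the 117 were picked for low estimates on the same arrays, the kept sign tests nothing. Depth is not known for arrays, and signal near the floor limits the class lower in CD80hi only.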

Other observations

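Some genes were called higher in knockout CD80lo cells without a called interaction. Plaur, the urokinase receptor gene, had 23.7 and 32.0 in knockout CD80hi, 12.3 and 23.1 in wild-type CD80hi, 401.8 and 155.4 in knockout CD80lo and 33.1 and 34.9 in wild-type CD80lo cells (CD80lo difference 2.72, adjusted p = 0.0147, limma; interaction adjusted p = 0.161). Serpinb2, a plasminogen activator inhibitor gene, had 641.1 and 1114.5 in knockout CD80hi, 1130.4 and 963.8 in wild-type CD80hi, 335.2 and 228.3 in knockout CD80lo and 34.5 and 35.5 in wild-type CD80lo cells (2.82, adjusted p = 0.0375; interaction adjusted p = 0.065). Both were picked after their values were seen. For Col1a2, a dimmer probe set was called higher in the knockout in both stages (1.74 in CD80hi and 2.19 in CD80lo cells), whereas the brightest had 130.4 and 104.7 in knockout CD80lo and 130.6 and 129.8 in wild-type CD80lo cells.

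Among the named genes, the highest interaction estimates, none of which passed, were those of H2-Ob, an MHC class II chain gene (2.26, adjusted p = 0.234), and Cdca7l, a cell cycle gene (2.23, adjusted p = 0.065). Cdca7l had 309.3 and 314.2 in knockout CD80hi, 68.8 and 114.8 in wild-type CD80hi, 104.5 and 180.2 in knockout CD80lo and 203.1 and 183.3 in wild-type CD80lo cells, and it rose in CD80hi cells (1.75, adjusted p = 0.0189, limma).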
